A study of Mus musculus with 12 samples.

Results

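B16F10 and 4T1 are transplantable mouse tumour cell lines, and their untreated cultures were compared here as 3 B16F10 control libraries against 3 4T1 control libraries, 6 of the 12 RNA-seq libraries of the series. B16F10 is a melanoma line that arose in a C57BL/6 mouse, and 4T1 is a mammary carcinoma line that arose in a BALB/c mouse. Neither group had received decitabine, the demethylating drug given to the other libraries of the study. Both lines were grown in the same serum-containing DMEM with 2-mercaptoethanol, and dead cells were taken out with microbeads before messenger RNA was sequenced. The libraries were joined on the gene identifier, which gave 46517 genes. Each group is a single established line, so any difference is one between these 2 lines and not between melanoma and mammary carcinoma as classes. Whether the 3 replicates of a line came from cultures grown apart is not stated in the labels. The spread that enters each p-value is that between these libraries and may be technical. Sequencing used HiSeq or NovaSeq instruments, without a record of which library ran on which, so line and instrument cannot be told apart.

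Melanocytes derive from the neural crest and make melanin inside melanosomes, under a transcription programme led by Mitf and Sox10. Mammary epithelium is held together by E-cadherin, claudins and desmosomes, is filled with keratins, and depends on factors such as Grhl2 and Gata3. Tumour cells of both kinds can present peptides on MHC class I, a display that interferons raise, and tumour lines often keep germline genes silent by methylation of their promoters. The 2 lines were therefore described by lineage, metabolism, immune genes and silenced genes.

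The libraries held 48527578 to 58976316 estimated counts in B16F10 and 49394930 to 54973140 in 4T1. Between 17336 and 17769 genes had an estimated count above 0 in a B16F10 library, against 19481 to 19882 in a 4T1 library. Levels are given as CPM, estimated counts scaled to library size with TMM factors, with means ± SD over the 3 libraries of a line. A total of 3 counts in a library corresponds to 0.0491 to 0.0588 CPM in B16F10 and 0.0568 to 0.0623 CPM in 4T1. Of 14833 genes that passed the expression filter, 6010 (40.5%) were higher and 6334 (42.7%) were lower in B16F10 at an adjusted p under 0.05 (edgeR), together 83.2%. With a fitted difference of at least 4-fold in addition, 1860 genes (12.5%) were higher and 2144 (14.5%) were lower, together 27.0%. Because most genes passed the first rule, gene lists are described below mainly by the 4-fold rule. Each 4-fold count of a list is to be read beside these 12.5% and 14.5%, and some lie near them. The median log2 fold change, B16F10 over 4T1, was -0.03 over all tested genes. The SE given beside an edgeR fold change is its size divided by the square root of the F statistic. For genes near 0 in a line, such an SE can be smaller than counting error alone. A member of a list that passed the filter only through the line in which it was high had to differ, so these counts are descriptions.

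An exact 0 in one line was not always an absent transcript. Rps12, a ribosomal protein gene that every cell uses, was listed at 0 in the B16F10 libraries and had 887, 973 and 935 CPM in the 4T1 libraries. Summed with its annotated pseudogenes, which hold near copies of its sequence, it had 575 ± 17.5 CPM in B16F10 and 1204 ± 36.9 CPM in 4T1. Rps2 went the other way, with 1640 ± 30.6 CPM in B16F10 and 17.8 ± 3.12 CPM in 4T1, and with its pseudogenes 1654 ± 32.5 CPM in B16F10 and 3267 ± 158 CPM in 4T1. Of 90 ribosomal protein genes at 10 CPM or more in either line, 1 had 0 counts in a line and 6 differed at least 4-fold, and their median log2 fold change was -0.04. The share of a gene's sequence, cut into words of 31 bases, that also occurs in transcripts of other genes was therefore measured. It is given, in percent, beside genes for which it reached 30%, whose values are uncertain.

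**Figure D1:**
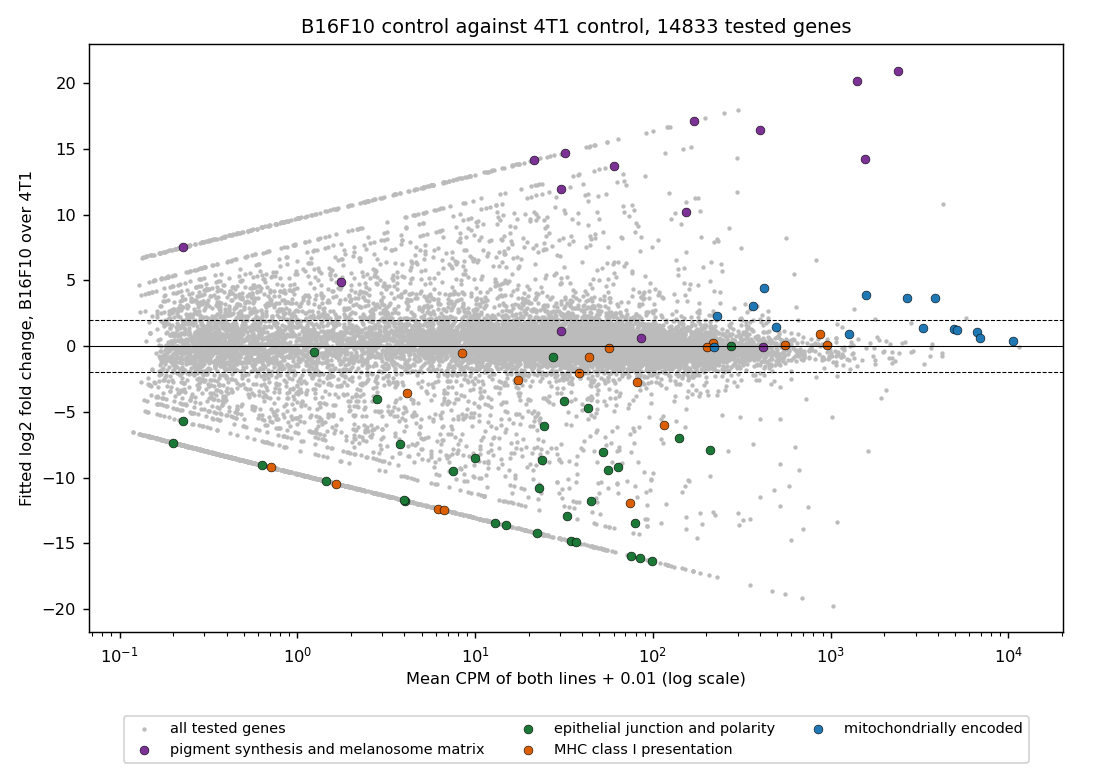
Fitted log2 fold change of B16F10 over 4T1 against the mean CPM of both lines on a log axis, for the 14833 tested genes, with 4 gene lists coloured and dashed lines at 4-fold. Genes with 0 counts in one line form the straight outer edges, because their fitted value is set by the prior count. Most pigment genes lie above the upper dashed line and most epithelial junction genes below the lower one.

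Transcription factors and receptors of the melanocyte lineage were higher in B16F10. Of 15 genes on this list 13 were tested, 9 were at least 4-fold higher and 1 was at least 4-fold lower, and the median log2 fold change was 5.82. Sox10, the neural crest factor that switches on Mitf, had 615, 613 and 585 CPM in the B16F10 libraries, against 0 CPM in each 4T1 library. Its libraries did not overlap between the lines, and the level in B16F10 was at least 30361-fold higher, counted against a floor of 3 counts over the 3 4T1 libraries. Mitf, the central regulator of melanocytes, had 481, 493 and 455 CPM in the B16F10 libraries, against 6, 7.03 and 5.97 CPM in the 4T1 libraries (edgeR log2 fold change 6.23, SE 0.0763, adjusted p = 2.75e-15). The 4T1 libraries thus held a low Mitf level that rested on 958 counts in all. Pax3, which acts upstream of Mitf, had 98 ± 2.62 CPM in B16F10 and 0.0333 ± 0.0233 CPM in 4T1 (edgeR log2 fold change 11.43, SE 0.141, adjusted p = 2.9e-15). Mc1r, the melanocortin receptor, had 138 ± 6.19 CPM in B16F10 and 0.0208 ± 0.0359 CPM in 4T1, a ratio of 6922-fold (95% counting interval 2368 to 33570). Gpnmb, a melanosomal and lysosomal glycoprotein, was the most abundant of the list by CPM in B16F10 with 8559 ± 505 CPM in B16F10 and 4.87 ± 1.31 CPM in 4T1 (edgeR log2 fold change 10.78, SE 0.27, adjusted p = 3.13e-07). Met, the hepatocyte growth factor receptor, was lower in B16F10 with 95.1, 84.4 and 92.4 CPM in the B16F10 libraries, against 276, 308 and 309 CPM in the 4T1 libraries (edgeR log2 fold change -1.72, SE 0.0627, adjusted p = 4.85e-11). Lef1, a Wnt effector, was at least 4-fold lower, with 0.0182 ± 0.0176 CPM in B16F10 and 1.54 ± 0.289 CPM in 4T1, a ratio of 87.1-fold (95% counting interval 29.4 to 425) in favour of 4T1. Kit and Ednrb, receptors that guide melanoblasts, were too low to be tested, with 4 and 18 counts over the B16F10 libraries and 1 and 0 counts over the 4T1 libraries.

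Of the genes for pigment synthesis and the melanosome matrix, 11 of 15 reached 1 CPM in B16F10 only. All 15 were tested, 12 were at least 4-fold higher and none was lower, and the median log2 fold change was 13.72. It was 11.65 with genes at 0 set to their lower bounds. Dct, the dopachrome tautomerase that works late in eumelanin synthesis, had 4800, 4661 and 4872 CPM in the B16F10 libraries, against 0 CPM in each 4T1 library, a level at least 240617-fold higher in B16F10. Tyrp1, a related enzyme of the same pathway, had 2859, 2757 and 2837 CPM in the B16F10 libraries, against 0 CPM in each 4T1 library, which was at least 141848-fold higher. The B16F10 libraries of both genes lay close together and far from the empty 4T1 libraries. Pmel, which forms the fibrils of the melanosome, had 3111 ± 50.8 CPM in B16F10 and 0.16 ± 0.0243 CPM in 4T1 (edgeR log2 fold change 14.23, SE 0.0923, adjusted p = 1.02e-16). Mlana, a melanosomal protein known as a melanoma antigen, had 803 ± 53.7 CPM in B16F10 and 0.00632 ± 0.0109 CPM in 4T1, a ratio of 121397-fold (95% counting interval 21788 to 4794956). Among the transporters, Slc45a2 had 342 ± 9.79 CPM in B16F10 and 0 CPM in 4T1, and Slc24a5 had 308 ± 2.59 CPM in B16F10 and 0.258 ± 0.0376 CPM in 4T1, with 39.4% of its words shared. Tyr and Oca2 were low even in B16F10. Tyr, tyrosinase, which catalyses the first step of melanin synthesis, had only 3.91, 2.69 and 3.53 CPM in the B16F10 libraries, against 0.166, 0.0568 and 0.12 CPM in the 4T1 libraries (edgeR log2 fold change 4.87, SE 0.335, adjusted p = 2.51e-08). It did not overlap with 4T1 but its length-scaled level in B16F10 was 1.42 ± 0.216 TPM, against 2996 ± 58.9 TPM for Tyrp1 and 2437 ± 68.7 TPM for Dct in the same libraries. In that order of length-scaled levels in B16F10, Pmel stood first at 4083 ± 167 TPM, then came Tyrp1, Dct and Mlana at 2281 ± 68.7 TPM, and Oca2 stood last at 0.331 ± 0.165 TPM. Each of these neighbours was separated by more than the sum of the SDs. Oca2, a melanosomal chloride channel regulator, had 73 counts over the B16F10 libraries and 0 over the 4T1 libraries. Cd63, a tetraspanin of lysosomes as well as melanosomes, had 405 ± 21.5 CPM in B16F10 and 429 ± 18 CPM in 4T1 and overlapped between the lines (edgeR adjusted p = 0.17).

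The start regions of the pigment enzymes are shown because these genes were each higher in B16F10, although Tyr was low even there. They are also shown because the letters CATGTG, the M-box core that Mitf is known to bind, can be read in them. The sequences are RefSeq promoter windows of build GRCm38.p6, 250 bases before to 50 after the start, written 5′ to 3′ on the strand of the gene, with CATGTG or its reverse complement in capitals. The Tyr window is chr7:87493463-87493762 on the minus strand, that of Tyrp1 chr4:80833963-80834262 on the plus strand, and that of Dct chr14:118052197-118052496 on the minus strand.
Tyr: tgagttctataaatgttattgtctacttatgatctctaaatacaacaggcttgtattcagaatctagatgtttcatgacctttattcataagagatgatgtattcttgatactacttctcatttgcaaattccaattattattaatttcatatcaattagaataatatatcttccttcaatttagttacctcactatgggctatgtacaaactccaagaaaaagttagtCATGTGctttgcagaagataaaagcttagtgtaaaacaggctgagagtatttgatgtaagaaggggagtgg
Tyrp1: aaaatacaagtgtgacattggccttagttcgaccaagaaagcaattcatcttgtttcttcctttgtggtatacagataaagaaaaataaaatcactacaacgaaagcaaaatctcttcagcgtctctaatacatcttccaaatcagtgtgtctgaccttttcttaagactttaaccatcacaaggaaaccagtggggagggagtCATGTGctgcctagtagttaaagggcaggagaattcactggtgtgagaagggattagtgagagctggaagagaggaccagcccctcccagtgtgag
Dct: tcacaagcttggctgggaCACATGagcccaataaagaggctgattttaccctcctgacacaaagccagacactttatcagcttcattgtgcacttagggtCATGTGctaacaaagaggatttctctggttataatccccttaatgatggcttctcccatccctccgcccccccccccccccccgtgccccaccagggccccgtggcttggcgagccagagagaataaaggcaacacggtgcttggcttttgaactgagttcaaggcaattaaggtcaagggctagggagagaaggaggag
The motif began 21 bases before the start in Tyr, 46 before it in Tyrp1, and 232 and 150 before it in Dct. On either strand CATGTG was in 8 of 10 windows of the pigment list (80%), which cover 9 of its 15 genes, against 14.2% of all 32851 windows. Tyr and Oca2, the genes with the lowest levels, held it as did Tyrp1 and Dct. It was in 1 of 22 windows of the regulators (4.55%) and in 3 of 20 of the trafficking genes (15%). The related letters CACGTG were in 2 of 10 pigment windows (20%), 9 of 20 trafficking windows (45%) and 7.15% of all windows. A match of letters is a description and no evidence of binding.

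Genes that move melanosomes differed less. All 20 were tested, of which 3 were at least 4-fold higher and none at least 4-fold lower, beside 12.5% and 14.5% of all tested genes. Their median log2 fold change was 0.89. The 3 were Rab38, which delivers pigment enzymes, with 501 ± 12.4 CPM in B16F10 and 0 CPM in 4T1, Mlph, which links melanosomes to the motor, with 307 ± 10.9 CPM in B16F10 and 0.152 ± 0.0351 CPM in 4T1, and Rab27a, the GTPase that recruits Mlph, with 76.4 ± 0.475 CPM in B16F10 and 9.52 ± 0.658 CPM in 4T1. The rest stayed within 4-fold. Myo5a, the motor itself, had 231 ± 11 CPM in B16F10 and 261 ± 5.04 CPM in 4T1 (edgeR log2 fold change -0.17, SE 0.0488, adjusted p = 0.00541), and Hps5, a sorting factor mutated in Hermansky-Pudlak syndrome, had 67.1 ± 0.651 CPM in B16F10 and 20.7 ± 1.44 CPM in 4T1. Among 19 neural crest and glial genes 12 were tested, 8 were at least 4-fold higher and 2 at least 4-fold lower. Ncam1, a neural adhesion molecule, had 182 ± 13.7 CPM in B16F10 and 0 CPM in 4T1, and the glial cadherin Cdh19 had 128 ± 6.59 CPM in B16F10 and 0 CPM in 4T1. Sox9, which neural crest and mammary progenitors both use, was the reverse with 0 CPM in each B16F10 library, against 98, 83.4 and 94.3 CPM in the 4T1 libraries, at least 5168-fold lower in B16F10.

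**Figure D2:**
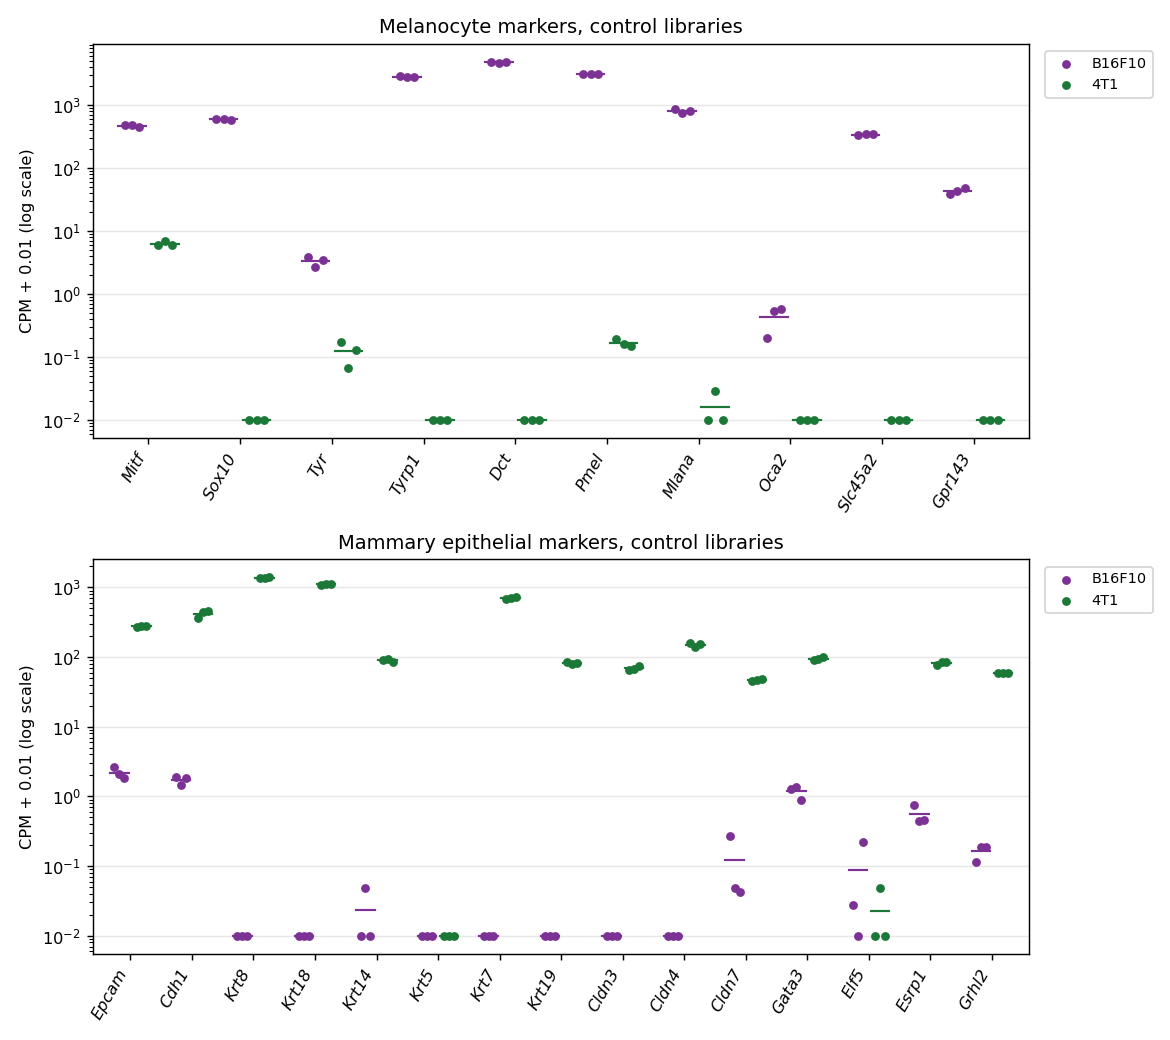
CPM + 0.01 on a log axis for 10 melanocyte markers and 15 mammary epithelial markers in each of the 3 B16F10 and 3 4T1 control libraries, with a bar at the mean of CPM + 0.01. Points at 0.01 are libraries with 0 counts. At an adjusted p under 0.05 (edgeR), all 10 melanocyte markers were at least 4-fold higher in B16F10, beside 12.5% of all tested genes. Of the 15 mammary markers 13 were tested, and these 13 were at least 4-fold lower, beside 14.5% of all tested genes. The markers were chosen as lineage genes, so these counts are descriptions.

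Junction and polarity genes of epithelia were lower in B16F10. Of 35 genes 34 were tested, 31 were at least 4-fold lower and none was at least 4-fold higher, and the median log2 fold change was -9.31. It was -8.75 with genes at 0 set to their bounds. Cdh1, E-cadherin, had 1.86, 1.45 and 1.82 CPM in the B16F10 libraries, against 364, 441 and 453 CPM in the 4T1 libraries (edgeR log2 fold change -7.93, SE 0.126, adjusted p = 3.13e-12). Epcam, a surface adhesion protein of carcinomas, had 2.63, 2.12 and 1.8 CPM in the B16F10 libraries, against 269, 283 and 283 CPM in the 4T1 libraries (edgeR log2 fold change -7.00, SE 0.103, adjusted p = 6.54e-14). Both were counted at a low level in every B16F10 library and did not overlap between the lines. Of the 35 genes 14 were without a count in B16F10, and 7 reached 1 CPM in both lines. Dsp, which ties keratin to desmosomes, had 0 CPM in B16F10 and 197 ± 14.4 CPM in 4T1, and the claudin Cldn4 had 0 CPM in B16F10 and 151 ± 9.64 CPM in 4T1. St14, the membrane protease matriptase, had 0 CPM in B16F10 and 170 ± 3.85 CPM in 4T1, at least 9559-fold lower. Tjp3, a tight junction scaffold, was low in both lines and did not pass the test, with 1.04 ± 0.19 CPM in B16F10 and 1.43 ± 0.0806 CPM in 4T1.

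Regulators of the epithelial state followed the same direction. Of 20 genes 17 were tested, and 15 were at least 4-fold lower and none at least 4-fold higher. Grhl2, which maintains epithelial junction genes, had 0.105, 0.176 and 0.18 CPM in the B16F10 libraries, against 58.9, 58.5 and 59 CPM in the 4T1 libraries (edgeR log2 fold change -8.56, SE 0.121, adjusted p = 8.05e-15). Esrp1, an epithelial splicing factor, had 0.542 ± 0.183 CPM in B16F10 and 81.8 ± 5 CPM in 4T1 (edgeR log2 fold change -7.23, SE 0.134, adjusted p = 1.79e-13). Gata3, the factor of luminal mammary cells, had 1.17 ± 0.256 CPM in B16F10 and 95.3 ± 4.21 CPM in 4T1 (edgeR log2 fold change -6.36, SE 0.112, adjusted p = 5.52e-14). Foxa1 was the member that was higher, with 8.9 ± 0.716 CPM in B16F10 and 3.45 ± 0.224 CPM in 4T1 (edgeR log2 fold change 1.37, SE 0.123, adjusted p = 3.6e-07). The letters ACCGGT, a core that grainyhead proteins bind, were in 2 of 24 windows of the junction genes (8.33%), those of Epcam and Spint1, in 0 of 12 windows of the regulators, and in 2.33% of all windows.

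Keratins of simple and basal epithelia were at or near 0 in B16F10. Of 16 genes on the list 10 were tested, and 9 of them were at least 4-fold lower. Krt8 had 0 CPM in each B16F10 library, against 1379, 1378 and 1393 CPM in the 4T1 libraries, with 36.9% of its words shared, and its partner Krt18 had 0 CPM in each B16F10 library, against 1090, 1110 and 1116 CPM in the 4T1 libraries. No library of B16F10 held a count of either, and Krt18 was at least 62370-fold lower. Krt7, another simple-epithelium keratin, had 0 CPM in B16F10 and 704 ± 30 CPM in 4T1. Krt14, the basal keratin, had 0.0131 ± 0.0226 CPM in B16F10 and 90.6 ± 3.99 CPM in 4T1, a ratio of 7672-fold (95% counting interval 2123 to 63356). Krt5, the usual partner of Krt14 in basal cells, had 0 counts in both lines. Krt80 was the exception, with 37.3 ± 1.26 CPM in B16F10 and 33.1 ± 0.715 CPM in 4T1 and an adjusted p of 0.0181 (edgeR), a call that was lost with DESeq2 (adjusted p = 0.0582), with no expression filter (0.0896) and without the second 4T1 or second B16F10 library (0.0819 and 0.0558, edgeR).

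Mesenchymal regulators were divided between the lines. Of 22 genes on that list 19 were tested, 2 were at least 4-fold higher and 6 at least 4-fold lower. Cdh2, N-cadherin, had 110 ± 5.56 CPM in B16F10 and 0 CPM in 4T1, and Snai2 had 6.21 ± 0.123 CPM in B16F10 and 0.0736 ± 0.0262 CPM in 4T1 (edgeR log2 fold change 6.37, SE 0.249, adjusted p = 9.39e-11). Twist1 had 0 CPM in B16F10 and 23.6 ± 1.41 CPM in 4T1, Snai1 had 0.0241 ± 0.0266 CPM in B16F10 and 10.8 ± 0.271 CPM in 4T1, and Axl, a receptor kinase of mesenchymal tumour cells, had 21.5 ± 0.731 CPM in B16F10 and 1016 ± 35.5 CPM in 4T1 (edgeR log2 fold change -5.56, SE 0.06, adjusted p = 1.12e-15). Vim, the intermediate filament vimentin, was abundant in both lines with 1981 ± 79 CPM in B16F10 and 2839 ± 76.1 CPM in 4T1 (edgeR log2 fold change -0.52, SE 0.0492, adjusted p = 5.88e-07). Zeb2, a repressor of Cdh1, had 204 ± 15.7 CPM in B16F10 and 55.1 ± 2.78 CPM in 4T1 (edgeR log2 fold change 1.89, SE 0.0654, adjusted p = 2.9e-11). Zeb1, a related repressor, was low in both lines with 0.453 ± 0.188 CPM in B16F10 and 0.998 ± 0.334 CPM in 4T1, and its adjusted p of 0.0119 (edgeR) was 0.0938 without the second 4T1 library. The 4T1 libraries therefore held epithelial keratins and junction genes together with Vim, Twist1, Snai1 and Axl.

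Genes of the cell surface and the matrix were also split. Of 18 integrins, all tested, 3 were at least 4-fold higher and 8 at least 4-fold lower. Itga3, the laminin-332 receptor chain, had 0 CPM in each B16F10 library, against 2040, 2012 and 2167 CPM in the 4T1 libraries and was at least 116888-fold lower in B16F10. Itga4, a receptor chain for Vcam1 and fibronectin, had 536 ± 36.2 CPM in B16F10 and 1.03 ± 0.164 CPM in 4T1 (edgeR log2 fold change 9.02, SE 0.101, adjusted p = 1.93e-15). Its ligand Vcam1 had 0.0292 ± 0.0506 CPM in B16F10 and 95.4 ± 3.32 CPM in 4T1. The laminin chains Lama3 and Lamb3 were low in B16F10. Lama3 had 0 CPM in B16F10 and 78.5 ± 9.74 CPM in 4T1, and Lamb3 had 0.0986 ± 0.0733 CPM in B16F10 and 158 ± 9.71 CPM in 4T1. Among 26 collagens and laminins 23 were tested, 7 were at least 4-fold higher and 12 at least 4-fold lower, and Col1a2 was on the higher side with 42.2 ± 2.53 CPM in B16F10 and 0.236 ± 0.0973 CPM in 4T1. Of 35 receptor tyrosine kinases 23 were tested, 4 at least 4-fold higher and 8 at least 4-fold lower, with Erbb3 at 208 ± 8.06 CPM in B16F10 and 15.6 ± 1.27 CPM in 4T1 and Epha2 at 0.263 ± 0.0709 CPM in B16F10 and 313 ± 15.2 CPM in 4T1. In the Hox A cluster, 9 of 11 genes were tested, 1 was at least 4-fold higher and 4 at least 4-fold lower, with Hoxa9 at 17.9 ± 1.26 CPM in B16F10 and 2.48 ± 0.0799 CPM in 4T1 and Hoxa5 at 3.61 ± 0.0941 CPM in B16F10 and 76.5 ± 8.97 CPM in 4T1. No gene of the Hox B, C and D clusters, 10, 9 and 9 genes, reached 1 CPM in either line.

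**Figure D3:**
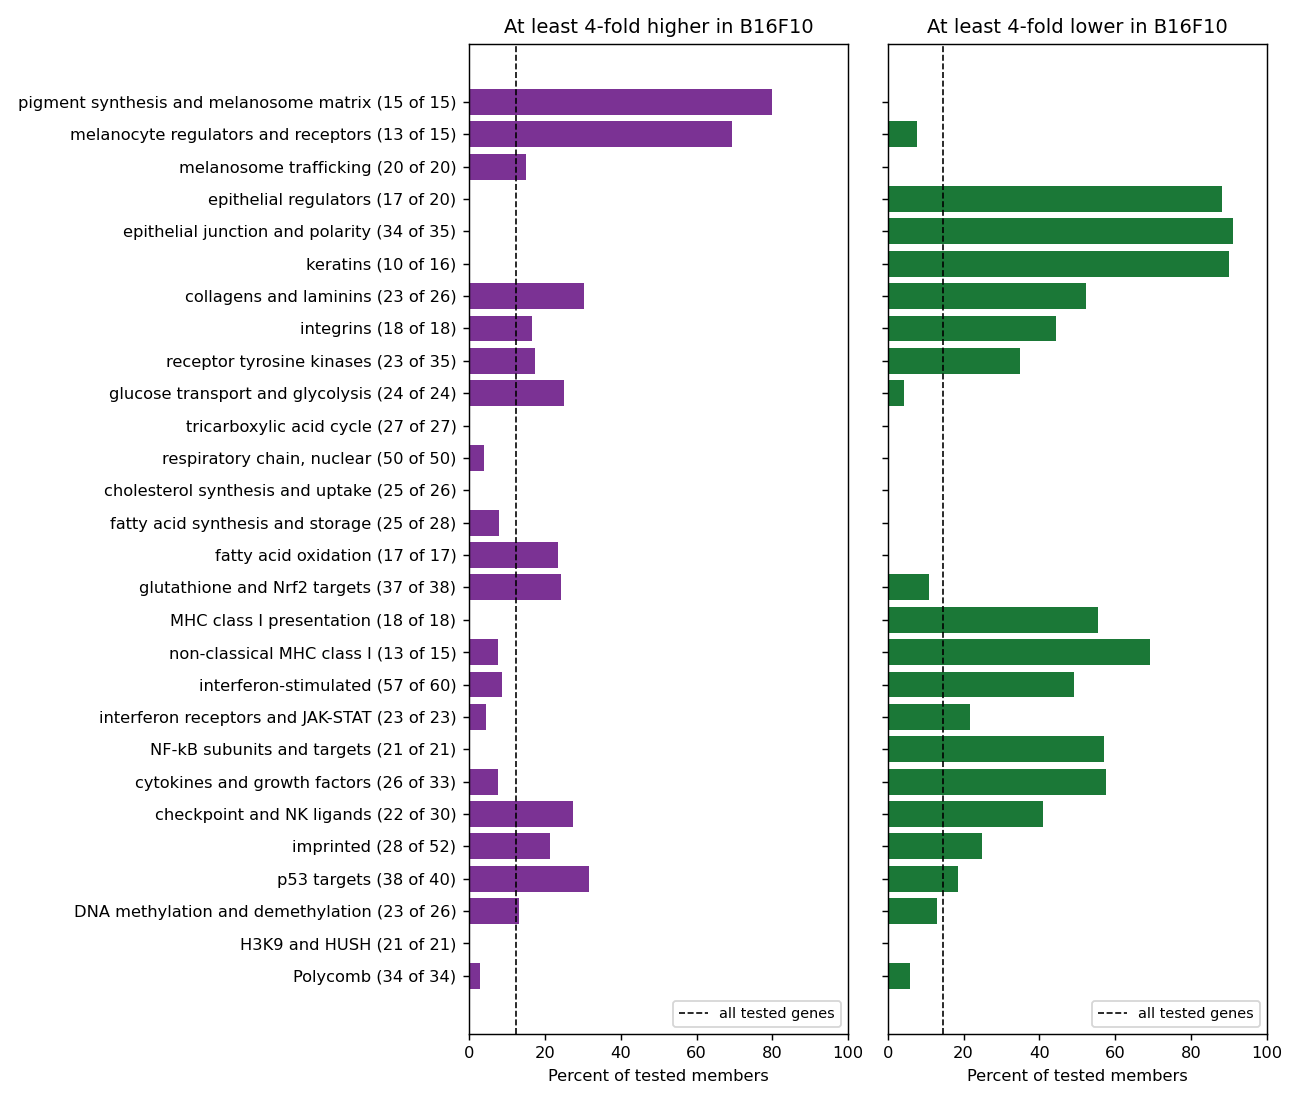
Percent of the tested members of 28 gene lists that were at least 4-fold higher (left) or at least 4-fold lower (right) in B16F10 at an adjusted p under 0.05, with the number tested of the number listed beside each name. Dashed lines mark 12.5% and 14.5% of all tested genes, and the pigment and melanocyte lists stand out on the left, the epithelial, MHC, NF-kB and cytokine lists on the right. Other lists also lie well past the right line, among them collagens and laminins (12 of 23), interferon-stimulated genes (28 of 57), integrins (8 of 18) and checkpoint and NK ligands (9 of 22).

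Classical MHC class I and its peptide supply were low in B16F10, while beta-2 microglobulin was not. All 18 genes were tested, 10 were at least 4-fold lower and none was at least 4-fold higher, with a median log2 fold change of -2.30. H2-K1 had 0.0175, 0 and 0.0818 CPM in the B16F10 libraries, against 147, 147 and 152 CPM in the 4T1 libraries (edgeR log2 fold change -11.94, SE 0.171, adjusted p = 3.38e-14). H2-D1 had 4.03, 3.59 and 3.13 CPM in the B16F10 libraries, against 238, 221 and 221 CPM in the 4T1 libraries (edgeR log2 fold change -5.98, SE 0.0856, adjusted p = 8.57e-15). The lines did not overlap for either heavy chain, and the sum of both was 3.61 ± 0.42 CPM in B16F10 and 375 ± 8.49 CPM in 4T1. B2m, the light chain, had 239 ± 11 CPM in B16F10 and 198 ± 8.91 CPM in 4T1 (edgeR log2 fold change 0.27, SE 0.0526, adjusted p = 0.000427). Tap1 and Tap2, which form the peptide transporter, had 0 CPM in every B16F10 library. In 4T1 Tap1 had 3.57, 3.28 and 3.03 CPM and Tap2 had 13.9, 13.4 and 13 CPM, and Tap2 was at least 758-fold lower in B16F10. The immunoproteasome subunits Psmb8 and Psmb9 also had 0 counts in B16F10, against 12.3 ± 0.554 CPM and 1.41 ± 0.361 CPM in 4T1. Nlrc5, the transactivator of these genes, had 0.66 ± 0.251 CPM in B16F10 and 7.62 ± 0.417 CPM in 4T1 (edgeR log2 fold change -3.54, SE 0.223, adjusted p = 1.08e-08), and the loading factor Tapbp had 21.7 ± 2.15 CPM in B16F10 and 142 ± 5.11 CPM in 4T1. Chaperones used by all secreted proteins were higher or similar in B16F10, Calr with 1146 ± 93.1 CPM in B16F10 and 599 ± 4.31 CPM in 4T1 and Pdia3 with 571 ± 26.6 CPM in B16F10 and 531 ± 7.02 CPM in 4T1. Reads were placed on the mm10 reference, which is C57BL/6, and class I genes differ between C57BL/6 and BALB/c. The part of that difference in these values was not tested, and H2-K1 and H2-D1 shared 23.6% and 25.2% of their words with other genes.

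Psmb9, Tap1, Psmb8 and Tap2 are neighbours on chromosome 17, from base 34181987 to 34216321 of mm10, in the MHC class II region. All 4 were at 0 in B16F10, and, with every annotated protein-coding gene counted, they formed the longest run of neighbours with at most 3 counts in one line and at least 1 CPM in the other. The RefSeq start windows of Tap1 and Psmb9 overlap head to head. That of Tap1, chr17:34187306-34187605 on the plus strand of GRCm38.p6, is shown with its CG pairs in capitals because the gene was without a count in one line only.
Tap1: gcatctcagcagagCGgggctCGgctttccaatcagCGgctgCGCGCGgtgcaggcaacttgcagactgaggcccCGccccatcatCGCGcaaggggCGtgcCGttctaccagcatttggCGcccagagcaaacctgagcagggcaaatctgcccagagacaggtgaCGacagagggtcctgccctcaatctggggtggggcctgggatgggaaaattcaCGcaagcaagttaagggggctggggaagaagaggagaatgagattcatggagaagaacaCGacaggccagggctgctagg
It held 15 CG pairs, against a median of 7 over all windows and of 15 over the 17 windows of the class I list.

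Non-classical class I genes were lower as well, with 13 of 15 tested, 9 at least 4-fold lower and 1 at least 4-fold higher. H2-Q4 had 0.143 ± 0.124 CPM in B16F10 and 73.3 ± 3.03 CPM in 4T1, though 52.8% of its words were shared, and H2-T23, which encodes the Qa-1 ligand of NK cells, had 4.68 ± 2.34 CPM in B16F10 and 18.2 ± 0.303 CPM in 4T1. Mr1, which presents vitamin B metabolites, was the higher member with 20.6 ± 1.09 CPM in B16F10 and 2.4 ± 0.195 CPM in 4T1 (edgeR log2 fold change 3.10, SE 0.108, adjusted p = 2.95e-11). Of 12 class II genes 7 were tested, 1 at least 4-fold higher and 3 at least 4-fold lower. H2-DMb1, a chain of the peptide editor, had 1.07 ± 0.251 CPM in B16F10 and 0 CPM in 4T1, and Cd74, the invariant chain, had 0.395 ± 0.113 CPM in B16F10 and 3.89 ± 0.428 CPM in 4T1.

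Receptors of type I and type II interferons and their kinases were expressed in both lines. Of 23 genes of this list, all tested, 1 was at least 4-fold higher and 5 at least 4-fold lower. Ifnar1 had 106 ± 3.35 CPM in B16F10 and 53.9 ± 4.45 CPM in 4T1, Ifngr1 had 22.5 ± 0.528 CPM in B16F10 and 36.3 ± 2.18 CPM in 4T1, and Jak1 had 163 ± 8.64 CPM in B16F10 and 183 ± 1.41 CPM in 4T1. Irf1 had 20.4, 20.9 and 21.3 CPM in the B16F10 libraries, against 54.1, 70.5 and 67.9 CPM in the 4T1 libraries, and its libraries did not overlap. Irf8 and Ifnlr1, the receptor chain of lambda interferons, had 0 CPM in B16F10 and 12.8 ± 2.29 CPM and 5.85 ± 0.643 CPM in 4T1.

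Interferon-stimulated genes were mostly lower in B16F10 but not uniformly. Of 60 genes 57 were tested, 28 were at least 4-fold lower and 5 at least 4-fold higher (3 without the first 4T1 library), and the median log2 fold change was -1.60. Trim25, a ubiquitin ligase of RNA sensing, had 0 CPM in each B16F10 library, against 94.5, 90.2 and 94.5 CPM in the 4T1 libraries, at least 5245-fold lower. Parp12 had 0 CPM in B16F10 and 38.4 ± 0.379 CPM in 4T1, and Parp9 had 1 count over the B16F10 libraries and 29.4 ± 0.543 CPM in 4T1. Ifih1, the MDA5 sensor of double-stranded RNA, had 0.0178 ± 0.00165 CPM in B16F10 and 19.6 ± 3.57 CPM in 4T1, a ratio of 1111-fold (95% counting interval 380 to 5392). The opposite direction was seen for Ifit2 with 100, 94.1 and 95.6 CPM in the B16F10 libraries, against 17.5, 19.9 and 19.6 CPM in the 4T1 libraries (edgeR log2 fold change 2.35, SE 0.0646, adjusted p = 3.19e-12), and for Rsad2, the antiviral enzyme viperin, with 11.6, 10.2 and 8.53 CPM in the B16F10 libraries, against 0.519, 1.02 and 1.18 CPM in the 4T1 libraries (edgeR log2 fold change 3.46, SE 0.24, adjusted p = 1.06e-07). Mx1 had 1.56 ± 0.445 CPM in B16F10 and 0.0862 ± 0.0646 CPM in 4T1, and Bst2, tetherin, had 35.8 ± 2.1 CPM in B16F10 and 9.55 ± 0.53 CPM in 4T1, a fitted 3.75-fold. Isg15 was low in both with 1.59 ± 0.534 CPM in B16F10 and 4.84 ± 1.28 CPM in 4T1. Among 33 nucleic acid sensing genes 29 were tested, 7 at least 4-fold lower and none at least 4-fold higher. Tmem173, which encodes STING, had 37.9 ± 3.36 CPM in B16F10 and 20.1 ± 0.597 CPM in 4T1, and Mb21d1, which encodes cGAS, had 19.6 ± 0.839 CPM in B16F10 and 28.1 ± 1.08 CPM in 4T1. Ifi203 had 0.362 ± 0.128 CPM in B16F10 and 78.4 ± 12.3 CPM in 4T1, and Ifi204 had 0.0109 ± 0.0189 CPM in B16F10 and 67.3 ± 7.3 CPM in 4T1 with 36.8% of its words shared.

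**Figure D4:**
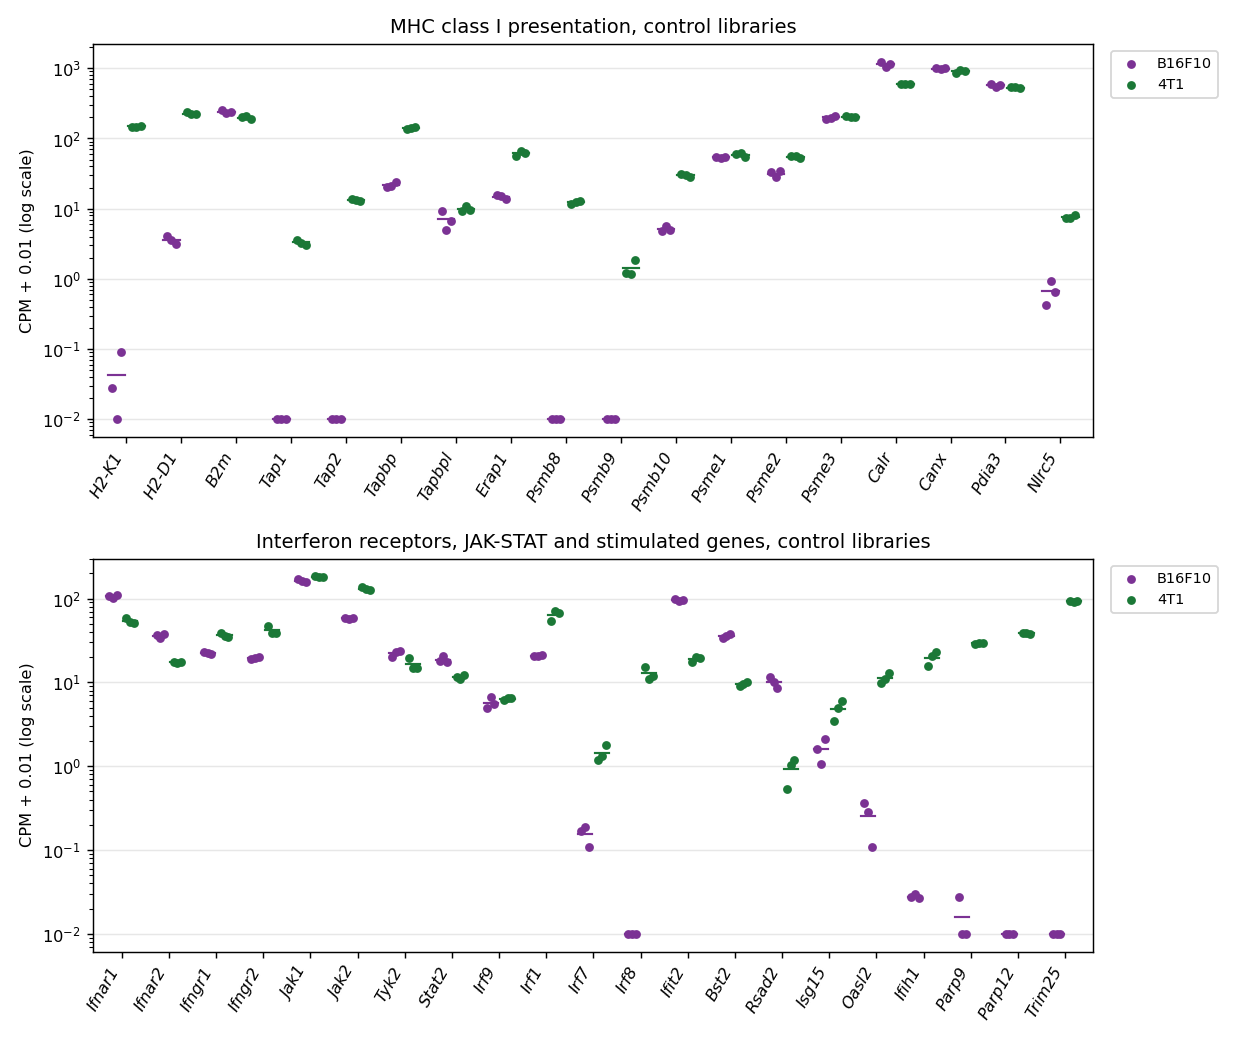
CPM + 0.01 on a log axis for the 18 genes of MHC class I presentation and for 21 interferon receptor, JAK-STAT and stimulated genes in each of the 3 B16F10 and 3 4T1 control libraries, with a bar at the mean of CPM + 0.01. Points at 0.01 are libraries with 0 counts, as for Tap1, Tap2, Psmb8, Psmb9, Irf8, Parp12 and Trim25 in B16F10.

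NF-kB subunits and targets were lower in B16F10. All 21 were tested, 12 were at least 4-fold lower and none at least 4-fold higher, with a median log2 fold change of -2.12. Nfkb2, the p100 subunit, had 32.7 ± 0.987 CPM in B16F10 and 246 ± 6.7 CPM in 4T1 (edgeR log2 fold change -2.91, SE 0.052, adjusted p = 5.92e-14), while Rela, the main activating subunit, had 74 ± 1.9 CPM in B16F10 and 109 ± 6.33 CPM in 4T1 (edgeR log2 fold change -0.56, SE 0.0546, adjusted p = 7.34e-07). Tnfaip3, the feedback inhibitor A20, had 1.77 ± 0.286 CPM in B16F10 and 154 ± 12 CPM in 4T1 (edgeR log2 fold change -6.45, SE 0.103, adjusted p = 6e-14). Traf1, another target, had 0 CPM in B16F10 and 60.7 ± 2.67 CPM in 4T1.

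Secreted factors divided the lines sharply. Of 33 cytokines and growth factors 26 were tested, 15 were at least 4-fold lower and 2 at least 4-fold higher. The 2 were Gdf15, a stress-induced cytokine, with 288, 361 and 331 CPM in the B16F10 libraries, against 0, 0 and 0.02 CPM in the 4T1 libraries, and Csf2, GM-CSF, with 516, 438 and 432 CPM in the B16F10 libraries, against 3.42, 1.17 and 0.861 CPM in the 4T1 libraries. Csf2 varied among the 4T1 libraries but all lay far below B16F10 (edgeR adjusted p = 8.96e-05). Csf1, the macrophage growth factor, was the reverse with 18.2 ± 1.13 CPM in B16F10 and 248 ± 12.8 CPM in 4T1 (edgeR log2 fold change -3.77, SE 0.0657, adjusted p = 4.89e-14). Csf3, G-CSF, had 2 counts over the B16F10 libraries and 23.4 ± 2.3 CPM in 4T1. Of 29 chemokines 14 were tested, 11 at least 4-fold lower and 2 at least 4-fold higher, and 17 were under 1 CPM in both lines. Cxcl16 had 0.383 ± 0.195 CPM in B16F10 and 93.1 ± 5.68 CPM in 4T1, Cx3cl1 had 0.00584 ± 0.0101 CPM in B16F10 and 36.2 ± 2.02 CPM in 4T1, and the neutrophil attractant Cxcl5 had 0 CPM in B16F10 and 22.9 ± 6.27 CPM in 4T1. Cxcl11 was higher with 17.1 ± 0.558 CPM in B16F10 and 0.3 ± 0.0532 CPM in 4T1, with 41.9% of its words shared.

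Ligands seen by T cells and NK cells went in both directions. Of 30 genes 22 were tested, 6 were at least 4-fold higher and 9 at least 4-fold lower. Cd274, which encodes PD-L1, had 19.6, 20.5 and 19.5 CPM in the B16F10 libraries, against 1.66, 1.59 and 1.74 CPM in the 4T1 libraries (edgeR log2 fold change 3.57, SE 0.106, adjusted p = 6.67e-12). Tnfrsf14, the HVEM receptor, had 212 ± 5.67 CPM in B16F10 and 0.785 ± 0.129 CPM in 4T1 (edgeR log2 fold change 8.08, SE 0.0878, adjusted p = 1.19e-15). Cd24a had 0 CPM in each B16F10 library, against 473, 476 and 430 CPM in the 4T1 libraries, at least 25922-fold lower, and Cd276, B7-H3, had 0 CPM in B16F10 and 96 ± 2.75 CPM in 4T1. Among other secreted or inducible products, the protease Plau had 0.0196 ± 0.034 CPM in B16F10 and 222 ± 8.07 CPM in 4T1, and the cyclooxygenase Ptgs2, which makes prostaglandins, had 0 CPM in B16F10 and 338 ± 23.6 CPM in 4T1.

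Of 24 genes of glucose transport and glycolysis, all tested, 6 were at least 4-fold higher and 1 at least 4-fold lower, with a median log2 fold change of 0.13. Slc16a3, the lactate exporter MCT4, had 51.1, 48 and 50.2 CPM in the B16F10 libraries, against 0.249, 0.341 and 0.28 CPM in the 4T1 libraries (edgeR log2 fold change 7.40, SE 0.114, adjusted p = 1.74e-14), while Slc16a1, MCT1, had 83.2 ± 6.24 CPM in B16F10 and 256 ± 7.55 CPM in 4T1 (edgeR log2 fold change -1.62, SE 0.0598, adjusted p = 5.26e-11). The neuronal glucose transporter Slc2a3 had 17.7 ± 1.87 CPM in B16F10 and 0.451 ± 0.0691 CPM in 4T1, and the neuronal enolase Eno2 had 59 ± 1.71 CPM in B16F10 and 2.14 ± 1.48 CPM in 4T1. Both were at least 4-fold higher, and Ldhb, the subunit that favours lactate oxidation, had 147 ± 5.64 CPM in B16F10 and 7.12 ± 0.155 CPM in 4T1. Aldoc was the gene at least 4-fold lower, with 0.892 ± 0.2 CPM in B16F10 and 14.6 ± 2.61 CPM in 4T1. Gapdh, often taken as a loading control, had 9580, 9184 and 9581 CPM in the B16F10 libraries, against 2063, 2198 and 2144 CPM in the 4T1 libraries (edgeR log2 fold change 2.15, SE 0.0477, adjusted p = 4.46e-13), with no overlap. Ldha, the main lactate dehydrogenase subunit of glycolytic cells, was close to equal with 1674 ± 49.5 CPM in B16F10 and 1813 ± 66 CPM in 4T1. Its adjusted p of 0.0451 (edgeR) was 0.764 without TMM scaling, 0.0987 with the replicate block, 0.0508 without the second 4T1 library, and 0.16 and 0.098 without the second and without the last B16F10 library. Hk2, a hexokinase often raised in tumours, had 97.5 ± 2.6 CPM in B16F10 and 85.5 ± 9.75 CPM in 4T1. Its adjusted p of 0.0298 (edgeR) was 0.0615 with DESeq2, 0.0614 with RLE size factors, 0.134 and 0.157 without the second and without the last 4T1 library, and 0.0542 to 0.0903 without any one B16F10 library.

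Among 27 genes of the tricarboxylic acid cycle, all tested, none differed at least 4-fold and the median was 0.02. Idh2, the mitochondrial NADP-dependent isocitrate dehydrogenase, had 308 ± 17.4 CPM in B16F10 and 129 ± 2.96 CPM in 4T1 (edgeR log2 fold change 1.25, SE 0.0526, adjusted p = 1.92e-10), and Idh3a, a subunit of the NAD-dependent enzyme, had 99.9 ± 9.11 CPM in B16F10 and 198 ± 4.93 CPM in 4T1 (edgeR log2 fold change -0.99, SE 0.0633, adjusted p = 1.28e-08). A list of 50 nuclear genes held the respiratory chain and regulators such as Ppargc1a and Tfam, and all were tested. Of these, 32 were higher and 9 lower in B16F10 at an adjusted p under 0.05 (edgeR), beside 40.5% and 42.7% of all tested genes. The median was 0.29, and 2 genes were at least 4-fold higher. One was Ppargc1a, the coactivator PGC-1alpha that drives mitochondrial biogenesis and that Mitf is known to activate, with 29.3, 28.1 and 25.6 CPM in the B16F10 libraries, against 0.083, 0.0947 and 0.1 CPM in the 4T1 libraries (edgeR log2 fold change 8.18, SE 0.161, adjusted p = 1.46e-13). The other was the subunit Cox5b with 218 ± 14.6 CPM in B16F10 and 51.3 ± 1.29 CPM in 4T1.

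Entries of the mitochondrial chromosome took 6.4% to 8.05% of the counts in B16F10 libraries and 2.63% to 3.06% in 4T1 libraries. These shares leave out reads placed on nuclear copies, which for mt-Co2 held most of the summed level in 4T1 but not in B16F10. The 4T1 share may therefore be too low, and the size of the difference is uncertain. All 15 genes were tested. Counted without those copies, 14 were higher and 6 at least 4-fold higher, beside 40.5% and 12.5% of all tested genes. Examples that share little sequence with other genes and differed less than 4-fold were mt-Nd5 and mt-Nd1. mt-Nd5 had 4731 ± 657 CPM in B16F10 and 1845 ± 210 CPM in 4T1 (edgeR log2 fold change 1.36, SE 0.119, adjusted p = 1.72e-05). mt-Nd1 had 8278 ± 1070 CPM in B16F10 and 5468 ± 278 CPM in 4T1 (edgeR log2 fold change 0.60, SE 0.0848, adjusted p = 9.61e-05). The 12S ribosomal RNA mt-Rnr1 had 217 ± 31.9 CPM in B16F10 and 222 ± 20.1 CPM in 4T1 and overlapped between the lines. mt-Co2 had 7142 ± 1623 CPM in B16F10 and 567 ± 81.4 CPM in 4T1, but all of its words were shared with a nuclear copy, and with that copy the sum was 7503 ± 1253 CPM in B16F10 and 4280 ± 385 CPM in 4T1, a log2 ratio of 0.81. Counts of mt-Atp6, mt-Co3, mt-Nd3 and mt-Nd4l are uncertain for the same reason, and summed with their copies the log2 ratios were 0.64, 0.47, 1.79 and 2.18.

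Of 26 genes of cholesterol synthesis and uptake 25 were tested, 4 were higher and 14 lower in B16F10 (edgeR), beside 40.5% and 42.7% of all tested genes, and none differed at least 4-fold, with a median of -0.28. Idi1, an isomerase of the pathway, had 69 ± 3.1 CPM in B16F10 and 264 ± 29.3 CPM in 4T1, while Sqle, the epoxidase, was higher with 365 ± 9.24 CPM in B16F10 and 195 ± 22.1 CPM in 4T1 (edgeR log2 fold change 0.90, SE 0.0734, adjusted p = 3.91e-07). Hmgcs1, an early enzyme of the pathway, had 108, 94.4 and 101 CPM in the B16F10 libraries, against 237, 338 and 351 CPM in the 4T1 libraries, and the lowest 4T1 library still lay above all B16F10 libraries. Of 17 fatty acid oxidation genes, all tested, 9 were higher and 3 lower (edgeR, beside 40.5% and 42.7% of all tested genes), 4 were at least 4-fold higher and none at least 4-fold lower. Ehhadh, a peroxisomal enzyme, had 22 ± 1.84 CPM in B16F10 and 0.0328 ± 0.0294 CPM in 4T1 (edgeR log2 fold change 9.28, SE 0.252, adjusted p = 2.81e-12), and Cpt1a, the entry step of the mitochondrial pathway, had 58.3 ± 2.51 CPM in B16F10 and 11.3 ± 0.514 CPM in 4T1 (edgeR log2 fold change 2.36, SE 0.0682, adjusted p = 4.98e-12).

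Other pathways held single genes with large differences. Aldh1l2, a mitochondrial folate enzyme, had 139 ± 8.77 CPM in B16F10 and 1.69 ± 0.369 CPM in 4T1 (edgeR log2 fold change 6.35, SE 0.115, adjusted p = 4.97e-13). Odc1, the first enzyme of polyamine synthesis, had 106 ± 3.4 CPM in B16F10 and 925 ± 15.9 CPM in 4T1, with 30.3% of its words shared. Of 38 glutathione and Nrf2 target genes 37 were tested, 9 at least 4-fold higher and 4 at least 4-fold lower, beside 12.5% and 14.5% of all tested genes. Hmox1, heme oxygenase, had 113 ± 0.845 CPM in B16F10 and 12.3 ± 2.09 CPM in 4T1, while Nqo1, a classical Nrf2 target, had 0.0506 ± 0.0442 CPM in B16F10 and 7.34 ± 0.482 CPM in 4T1 and Akr1b8 had 0.0309 ± 0.0242 CPM in B16F10 and 33.6 ± 1.31 CPM in 4T1. The metallothionein Mt1 had 431 ± 23.6 CPM in B16F10 and 44.2 ± 7.34 CPM in 4T1, and Tfrc, the transferrin receptor, had 242 ± 5.13 CPM in B16F10 and 658 ± 15.7 CPM in 4T1. Nt5e, CD73, which makes adenosine, had 0.0131 ± 0.0226 CPM in B16F10 and 101 ± 2.2 CPM in 4T1, a ratio of 8555-fold (95% counting interval 2368 to 70649). For nucleosides, the kinase Dck that activates cytidine analogues had 75.6 ± 3.24 CPM in B16F10 and 75.1 ± 4.97 CPM in 4T1 and overlapped between the lines, and the transporter Slc29a2 had 0.455 ± 0.202 CPM in B16F10 and 18.9 ± 2.07 CPM in 4T1 (edgeR log2 fold change -5.39, SE 0.226, adjusted p = 1.41e-09).

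**Figure D5:**
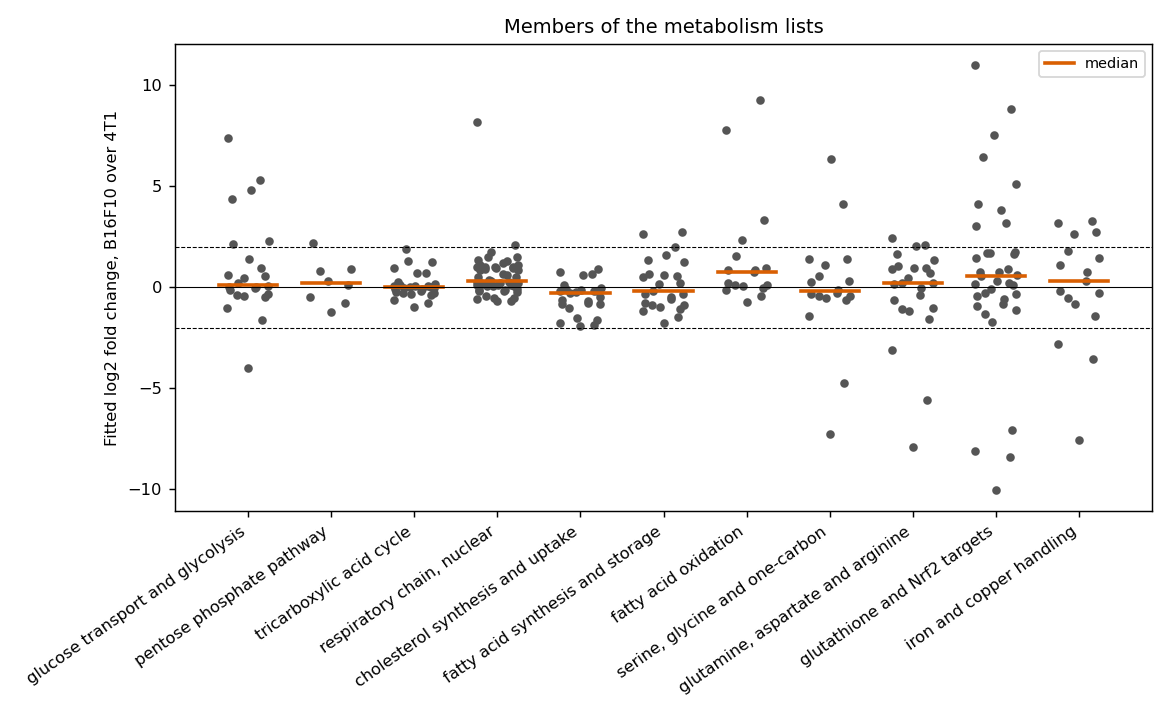
Fitted log2 fold change of B16F10 over 4T1 for each tested member of 11 metabolism lists, 1 point per gene with an orange bar at the median and dashed lines at 4-fold. Medians of these lists stay between -0.28 and 0.73 (mitochondrially encoded genes, at 1.36, and tryptophan, purine nucleotide and adenosine genes, at -0.91, are not drawn), while single genes reach far beyond 4-fold in glycolysis, fatty acid oxidation, one-carbon and glutathione lists.

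Most germline genes were low in both lines, though most had some counts, and a few were strongly expressed in B16F10. Of 55 genes listed from textbook knowledge as kept off by promoter methylation, 47 were under 1 CPM in both lines, beside 33657 of all 46517 genes. No count in either line was found for 12 of the 55, beside 22235 of all genes. Of the 13 tested, 8 were at least 4-fold higher and 3 at least 4-fold lower. The first number was 5 with a filter of 1 CPM, and the second was 7 with no filter. Fkbp6, a cochaperone of the piRNA pathway, had 232, 243 and 244 CPM in the B16F10 libraries, against 0 CPM in each 4T1 library, at least 12041-fold higher in B16F10. Piwil2, a piRNA-binding Argonaute protein, had 138, 131 and 136 CPM in the B16F10 libraries, against 0.0415, 0.0568 and 0.14 CPM in the 4T1 libraries (edgeR log2 fold change 10.69, SE 0.135, adjusted p = 3.32e-15). Both were at or close to 0 in every 4T1 library and uniform among the B16F10 libraries. Tex14, a protein of germ cell bridges, had 37.9 ± 1.77 CPM in B16F10 and 0.0337 ± 0.0247 CPM in 4T1 (edgeR log2 fold change 10.06, SE 0.181, adjusted p = 6.42e-14), and Zcwpw1 had 126 ± 2.86 CPM in B16F10 and 1.47 ± 0.383 CPM in 4T1 (edgeR log2 fold change 6.43, SE 0.114, adjusted p = 2.16e-13). Sycp1, of the synaptonemal complex, and Piwil4 were the reverse, with 0 CPM in B16F10 and 4.78 ± 0.29 CPM and 2.31 ± 0.167 CPM in 4T1. One of the 2 RefSeq start windows of Fkbp6, chr5:135349864-135350163 on the minus strand of GRCm38.p6, is shown with CG pairs in capitals because the gene was on in one line and off in the other.
Fkbp6: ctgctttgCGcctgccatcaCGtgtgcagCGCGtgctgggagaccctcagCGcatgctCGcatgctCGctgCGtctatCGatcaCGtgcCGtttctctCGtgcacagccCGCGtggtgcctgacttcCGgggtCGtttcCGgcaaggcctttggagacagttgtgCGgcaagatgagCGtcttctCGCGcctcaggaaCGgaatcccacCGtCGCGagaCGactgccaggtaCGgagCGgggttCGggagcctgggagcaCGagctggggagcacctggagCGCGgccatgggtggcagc
It held 32 CG pairs and the other window 21, against a median of 17 over the 57 windows of the germline list and 7 over all windows. DNA methylation was not measured in these files.

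Of 39 Mage, Xlr and Rhox genes, clustered families of the X chromosome, 33 were under 1 CPM in both lines, beside 33657 of all 46517 genes. On this list 8 were tested and 7 of them were at least 4-fold higher. Rhox5, a homeobox gene often used to follow demethylation, had 22, 17.6 and 20.3 CPM in the B16F10 libraries, against 1.39, 1.08 and 1.02 CPM in the 4T1 libraries (edgeR log2 fold change 4.10, SE 0.145, adjusted p = 3.41e-11). The near-identical Xlr3 genes were summed and had 45.1 ± 2.36 CPM in B16F10 and 0.0402 ± 0.0206 CPM in 4T1. Maged2 had 59.2 ± 1.75 CPM in B16F10 and 11.5 ± 0.242 CPM in 4T1 (edgeR log2 fold change 2.36, SE 0.0632, adjusted p = 2.36e-12). Rhox4a2, a Rhox gene that is not on the list and was chosen after its values were seen, went the other way with 0 CPM in each B16F10 library, against 9.3, 12.3 and 12.7 CPM in the 4T1 libraries, though 100% of its words were shared with other genes, which makes it uncertain.

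Imprinted genes went in both directions. Of 52 genes 28 were tested, 6 were at least 4-fold higher and 7 at least 4-fold lower. Peg10, a gene derived from a retrotransposon, had 136 ± 6.09 CPM in B16F10 and 0.0126 ± 0.0219 CPM in 4T1, and its neighbour Sgce had 75.4 ± 2.04 CPM in B16F10 and 0.00692 ± 0.012 CPM in 4T1. Plagl1, a zinc finger factor, had 441 ± 34.5 CPM in B16F10 and 1.78 ± 0.151 CPM in 4T1 (edgeR log2 fold change 7.95, SE 0.0909, adjusted p = 1.77e-15). Asb4, near Peg10 and Sgce on the same chromosome, was the reverse with 0.0261 ± 0.0453 CPM in B16F10 and 4 ± 0.73 CPM in 4T1. Cdkn1c, a cell cycle inhibitor, had 6.15 ± 0.395 CPM in B16F10 and 0.0329 ± 0.0106 CPM in 4T1, while Phlda2 of the same imprinted domain was lower with 0 CPM in B16F10 and 18.1 ± 0.538 CPM in 4T1, and Mest had 0.578 ± 0.0925 CPM in B16F10 and 12.5 ± 0.649 CPM in 4T1. Among 12 oncofetal genes 9 were tested, 2 at least 4-fold higher and 4 at least 4-fold lower. Hmga2, a chromatin protein repressed by let-7, had 31, 32.8 and 30.3 CPM in the B16F10 libraries, against 302, 328 and 330 CPM in the 4T1 libraries (edgeR log2 fold change -3.35, SE 0.0583, adjusted p = 4.83e-14). Igf2bp2 had 0.238 ± 0.0922 CPM in B16F10 and 200 ± 26.3 CPM in 4T1, and Gpc3 had 52.1 ± 1.57 CPM in B16F10 and 0.0134 ± 0.0231 CPM in 4T1. Igf2bp3 was low in both lines, with 0.117 ± 0.0816 CPM in B16F10 and 0.216 ± 0.102 CPM in 4T1. Xist, the RNA that coats the inactive X, had 65 counts over the B16F10 and 20 over the 4T1 libraries.

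The enzymes that write and erase DNA methylation differed by gene and not as a group. Of 26 genes 23 were tested, 3 at least 4-fold higher and 3 at least 4-fold lower, near the 12.5% and 14.5% of all tested genes. Their median log2 fold change was -0.08. Dnmt1, which copies methylation at replication, had 306, 304 and 287 CPM in the B16F10 libraries, against 414, 453 and 468 CPM in the 4T1 libraries (edgeR log2 fold change -0.57, SE 0.0549, adjusted p = 6.41e-07), and its partner Uhrf1 had 241 ± 11.5 CPM in B16F10 and 324 ± 12.6 CPM in 4T1 (edgeR log2 fold change -0.43, SE 0.0513, adjusted p = 5.73e-06). Dnmt3a, a de novo methyltransferase, had 117, 114 and 106 CPM in the B16F10 libraries, against 23.5, 15.7 and 18.5 CPM in the 4T1 libraries (edgeR log2 fold change 2.55, SE 0.134, adjusted p = 4.16e-07), and Dnmt3b was low in both with 9.37 ± 0.928 CPM in B16F10 and 5.86 ± 0.293 CPM in 4T1. Tet1, a demethylating dioxygenase, had 53.5, 45.8 and 46.6 CPM in the B16F10 libraries, against 4.07, 4.11 and 4.13 CPM in the 4T1 libraries (edgeR log2 fold change 3.57, SE 0.0874, adjusted p = 1.06e-12). Tet2 had 0 CPM in each B16F10 library, against 25.9, 20.1 and 20.5 CPM in the 4T1 libraries, at least 1245-fold lower in B16F10, and Tet3 had 136 ± 5.95 CPM in B16F10 and 61.1 ± 3.1 CPM in 4T1. The TET genes therefore did not share a direction. Apobec3, which deaminates viral DNA, had 0.592 ± 0.179 CPM in B16F10 and 41.7 ± 1.39 CPM in 4T1. Among 21 genes of H3K9 methylation and the HUSH complex, all tested, none reached a fitted 4-fold difference, and Suv39h2 came closest with 10.5 ± 0.77 CPM in B16F10 and 42 ± 2.17 CPM in 4T1. Among 34 Polycomb genes, all tested, Jarid2 was at least 4-fold higher with 88.1 ± 4.13 CPM in B16F10 and 14 ± 1.28 CPM in 4T1. Phf19 and Pcgf6 were at least 4-fold lower, with 5.75 ± 0.158 CPM in B16F10 and 63.1 ± 1.08 CPM in 4T1 for Phf19 and 9.1 ± 2.25 CPM in B16F10 and 41 ± 1.8 CPM in 4T1 for Pcgf6.

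The p53 gene was higher in B16F10, and its targets went in both directions. Trp53 itself had 127, 127 and 139 CPM in the B16F10 libraries, against 42.6, 45.3 and 44.9 CPM in the 4T1 libraries (edgeR log2 fold change 1.57, SE 0.0553, adjusted p = 3.49e-11). Of 40 target genes 38 were tested, 25 were higher and 11 lower (edgeR), beside 40.5% and 42.7% of all tested genes. At least 4-fold higher were 12 and at least 4-fold lower 7, beside 12.5% and 14.5% of all tested genes, and the median log2 fold change was 1.04. Cdkn1a, the cell cycle inhibitor p21, had 160, 168 and 168 CPM in the B16F10 libraries, against 17.2, 10.2 and 11.6 CPM in the 4T1 libraries (edgeR log2 fold change 3.67, SE 0.197, adjusted p = 6.57e-06). Eda2r had 18.2 ± 0.722 CPM in B16F10 and 0.0205 ± 0.0208 CPM in 4T1 and Ephx1 had 109 ± 2.36 CPM in B16F10 and 1.39 ± 0.0569 CPM in 4T1, while Mdm2, the ubiquitin ligase of p53, had 165 ± 7.19 CPM in B16F10 and 81.6 ± 7.06 CPM in 4T1 (edgeR log2 fold change 1.01, SE 0.0648, adjusted p = 1.21e-08). The targets that were lower included Perp, also a desmosome gene, with 0.213 ± 0.101 CPM in B16F10 and 127 ± 10.4 CPM in 4T1, Plk2 with 7.44 ± 0.546 CPM in B16F10 and 115 ± 3.96 CPM in 4T1, and Ddb2 with 0.028 ± 0.0253 CPM in B16F10 and 11.3 ± 1.47 CPM in 4T1. Sesn2, which is also known as a target of Atf4, the factor of amino acid stress, had 93.3 ± 10.4 CPM in B16F10 and 7.98 ± 0.193 CPM in 4T1 (edgeR log2 fold change 3.55, SE 0.0875, adjusted p = 1.13e-12). Of 25 Atf4 and unfolded protein genes, all tested, 6 were at least 4-fold higher and 2 at least 4-fold lower. Atf4 had 665 ± 21.7 CPM in B16F10 and 197 ± 24 CPM in 4T1, and the chaperone Hspa5 had 651 ± 47.1 CPM in B16F10 and 1489 ± 36.4 CPM in 4T1. Cdkn2a and Cdkn2b, neighbouring cell cycle inhibitors often deleted in tumour lines, had 0 counts in all 6 libraries, and their neighbour Mtap had 108, 108 and 120 CPM in the B16F10 libraries, against 796, 827 and 821 CPM in the 4T1 libraries (edgeR log2 fold change -2.86, SE 0.0562, adjusted p = 1.39e-13).

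Markers of fibroblasts, blood and endothelium were mostly under 1 CPM in both lines. This held for 11 of 18 fibroblast, 20 of 24 blood and immune, and 10 of 14 endothelial genes, beside 33657 of all 46517 genes. Such counts therefore do not show on their own that these cells were absent. Summed over each list, fibroblast markers had 284 to 288 CPM in B16F10 libraries and 224 to 232 CPM in 4T1 libraries, blood and immune markers 98 to 102 CPM in B16F10 and 9.77 to 10.1 CPM in 4T1, and endothelial markers 182 to 186 CPM in B16F10 and 121 to 135 CPM in 4T1. Fbln1, a matrix protein, had 167 ± 3.72 CPM in B16F10 and 1.13 ± 0.0411 CPM in 4T1, and Cd68, a lysosomal protein also found outside macrophages, had 97 ± 2.81 CPM in B16F10 and 2.89 ± 0.321 CPM in 4T1. Ptprc, the pan-leukocyte CD45, had 0 counts over the B16F10 libraries and 13 over the 4T1 libraries. Of the 24 blood and immune genes 6 were tested. At least 4-fold higher in B16F10 were 4 (Lyz2, Fcer1g, Cd68 and Itgam), and 2 (Cd14 and Csf1r) were at least 4-fold lower. A fixed set of 9 immune markers summed to 3.06 to 3.85 CPM in B16F10 and 0.145 to 0.2 CPM in 4T1. Its 3 tested members were all at least 4-fold higher in B16F10. Pecam1, an endothelial adhesion protein, had 0.131 ± 0.0682 CPM in B16F10 and 13.9 ± 2.98 CPM in 4T1, and Eng, a co-receptor for transforming growth factors, had 162 ± 1.35 CPM in B16F10 and 64.5 ± 1.47 CPM in 4T1.

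Cell cycle genes stayed within 4-fold. All 34 replication genes and 28 mitotic genes were tested, and the medians were -0.27 and -0.64, with 3 mitotic genes higher and 21 lower in B16F10 (edgeR), beside 40.5% and 42.7% of all tested genes. Kif23, a kinesin of cytokinesis, had 54.6 ± 2.52 CPM in B16F10 and 217 ± 7.41 CPM in 4T1 (edgeR log2 fold change -1.99, SE 0.0541, adjusted p = 2.81e-12). Immediate early and heat shock genes were lower in B16F10, with 22 of 23 tested, 11 at least 4-fold lower and none higher. Egr1, an early growth response factor, had 0.21, 0.176 and 0.262 CPM in the B16F10 libraries, against 85.7, 7.98 and 8.33 CPM in the 4T1 libraries. Its adjusted p of 0.0214 (edgeR) was 0.212 with limma-voom, and 0.0769 to 0.0787 when any B16F10 library was left out (edgeR). Without the first 4T1 library the log2 fold change was -5.23 in place of -7.26. Junb, another early gene, was also highest in that 4T1 library, with 8.58, 9.16 and 9.31 CPM in the B16F10 libraries, against 253, 148 and 152 CPM in the 4T1 libraries.

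Genes expressed in one line and silent in the other were counted as at most 3 counts over the 3 libraries of one line and at least 10 CPM in the other. There were 145 such genes in B16F10, of which 131 were protein-coding, and 295 in 4T1, of which 250 were protein-coding. Annotated pseudogenes were 4 of the 145 and 39 of the 295. Sequence shared with other genes was under 10% for 121 of the 145 and 215 of the 295, and at least 30% for 14 and 55. How much of the larger number in 4T1 comes from reads placed on copies was not tested. Among the genes highest in B16F10 by the naming rule were Syt4, a vesicle protein of neurons, with 395 ± 0.577 CPM in B16F10 and 0 CPM in 4T1, Dnaic1, a dynein chain of cilia, with 248 ± 12.4 CPM in B16F10 and 0 CPM in 4T1, Prdm16, a zinc finger factor, with 244 ± 5.28 CPM in B16F10 and 0 CPM in 4T1, and Insc, a spindle orientation factor, with 199 ± 13.4 CPM in B16F10 and 0 CPM in 4T1. Among those highest in 4T1 were Fbln2, a matrix protein, with 0 CPM in B16F10 and 414 ± 30.1 CPM in 4T1, Ankrd1, a YAP target, with 0 CPM in B16F10 and 263 ± 11.4 CPM in 4T1, Ptgfrn with 0 CPM in B16F10 and 290 ± 10.3 CPM in 4T1, and Rorb with 0 CPM in B16F10 and 370 ± 85.7 CPM in 4T1. None of these 8 genes had a count in the line where it was low.

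Silent genes also lay side by side. Counting every protein-coding gene, 5 runs of at least 3 neighbours were silent in B16F10 and 1 was silent in 4T1. Passing over genes under 1 CPM in both lines, a count chosen after seeing the data, gave 16 runs silent in B16F10 and 1 silent in 4T1, with the keratins Krt10, Krt19, Krt14 and Krt16 as another run of 4. Beside the Tap and Psmb genes, the runs silent in B16F10 held the peptidylarginine deiminases Padi4, Padi3 and Padi1 on chromosome 4, with 181 ± 12.7, 14.3 ± 1.59 and 14.7 ± 0.813 CPM in 4T1 and 32.8% of the words of Padi1 shared. Another held Wbscr27, Cldn4 and Cldn3 on chromosome 5, one held Pcolce2, Trpc1 and Pls1 on chromosome 9, and one held Ccdc68, Rab27b and Dynap on chromosome 18. The run silent in 4T1 held the small matrix proteoglycans Optc, Prelp and Fmod on chromosome 1, with 2.07 ± 0.19, 28.3 ± 2.51 and 1.59 ± 0.345 CPM in B16F10. Over whole chromosomes, the median log2 fold change of genes at 10 CPM or more in both lines was highest on chromosomes 6 and 15, at 0.65 over 363 genes and 0.54 over 314 genes, and lowest on chromosomes 3 and 9, at -0.53 over 411 and -0.37 over 423 genes. The remaining nuclear chromosomes with more than 2 such genes lay between -0.28 and 0.27. Chromosome number was not measured in these files.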

How the data were processed

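Messenger RNA was sequenced from 3 B16F10 and 3 4T1 control libraries, and 6 decitabine columns were not used. The deposited values are expected counts per gene, of which 9.54% to 12.2% were not whole. The tools RSEM and edgeR and the build mm10 are named in the submitters' processing notes, and the labels name no aligner, annotation or strand setting, so reads of overlapping antisense genes cannot be told apart. The 2 tables were joined on the gene identifier, 27 symbols that a spreadsheet had turned into dates were put right, and 46005 of 46517 identifiers matched GENCODE M21.

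Counts were rounded and tested with edgeR 4.0.16 in R 4.3.3 (filterByExpr, TMM, robust quasi-likelihood test, Benjamini-Hochberg over 14833 genes, group as the term). Alternatives used limma 3.58.1 and DESeq2 1.42.0. The scripts were tested on simulated data, where false calls took a larger share than the threshold names and some of the smallest changes were missed. Genes at 0 in a line were set against a floor of 3 counts over its 3 libraries, and genes at 1 to 3 counts got a 95% counting interval, which both cover counting error only. TPM used annotated exon length. Shared sequence was counted over 1 in 4 words of 31 bases.

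The lists and members were chosen with earlier results of these data known. Named genes are the 15 most higher and most lower genes with at least 10 CPM, up to 4 members per direction of each list, a fixed set of lineage, immune and chromatin genes, and genes in silent runs. List members named outside this rule (among them Axl, Gapdh, Gpnmb, Nfkb2, Nlrc5, Tapbp, Zcwpw1, Zeb2 and Junb) were chosen after their values were seen. Of 1461 list entries 1457 matched the files.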

Additional observations from a re-analysis of the deposited data

How the results depend on the processing

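For the 434 named genes tested, direction was compared wherever the main fit or an alternative called the gene, and 0 values reversed there. The alternatives were the scalings, filters and tests tried and every fit without a library. Direction was not compared where neither fit called a gene. Over the 434 genes, 5976 values stayed on the same side of the threshold. The call was lost in 50 values of 12 genes (Bloc1s1, Krt80, Hoxa4, Hadh, Canx, Maged1, Xist, Uty, Egr1, Zeb1, Ldha and Hk2). It was gained in 8 values of 4 genes (Pgls, Rfxap, Igf2bp3 and Ftx). Without one library, 12078 to 12595 genes were called, 5880 to 6113 higher and 6195 to 6482 lower. The replicate numbers are not known to mark a shared day, and deviations of same-numbered libraries correlated at -0.0417, -0.0489 and -0.00319. With the replicate block, 5845 genes were higher and 6154 lower. With library size alone the median over all genes was 0.07 in place of -0.03, and 6463 genes were higher and 5821 lower. Interferon-stimulated genes at least 4-fold higher numbered 3 to 5 without one library, and 3 only without the first 4T1 library, so that count rests on it. Germline genes at least 4-fold higher numbered 5 with a filter of 1 CPM in 3 libraries, which tests fewer genes, and those at least 4-fold lower numbered 7 with no filter, which tests more. Genes seen in B16F10 only numbered 85 when no count at all was allowed in 4T1, and those seen in 4T1 only numbered 222 by the same rule. Runs of silent neighbours numbered 16 in B16F10 and 1 in 4T1 when genes under 1 CPM in both lines were passed over, an alternative chosen after seeing the data. Of 822 list medians under alternatives 141 moved, and the cause was not tested. Genes under about 1 CPM rest on few counts.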

Other observations

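Genes of complement, coagulation and the mammary gland were not described above. Of 25 complement and coagulation genes 14 were tested, 4 were at least 4-fold higher and 7 at least 4-fold lower in B16F10. Procr, the receptor of activated protein C, had 0.206 ± 0.121 CPM in B16F10 and 44.1 ± 2.41 CPM in 4T1, and Plaur, the receptor of the protease encoded by Plau, had 3.43 ± 0.474 CPM in B16F10 and 93.9 ± 7.29 CPM in 4T1. Cd59a, which blocks the membrane attack complex, had 7.64 ± 0.437 CPM in B16F10 and 0.101 ± 0.0641 CPM in 4T1, and C1ra, a protease of the classical pathway, had 13.4 ± 0.845 CPM in B16F10 and 1.64 ± 0.454 CPM in 4T1, with 61.8% of its words shared. Of 24 mammary hormone and milk genes 12 were tested, 2 at least 4-fold higher and 6 at least 4-fold lower. In both lines 15 of the 24 were under 1 CPM, beside 33657 of all 46517 genes. Summed over the list, levels were 451 to 460 CPM in B16F10 libraries and 451 to 461 CPM in 4T1 libraries. Areg, a ligand of the epidermal growth factor receptor, had 0 CPM in B16F10 and 17 ± 3.15 CPM in 4T1, and Spp1, osteopontin, had 1.37 ± 0.382 CPM in B16F10 and 227 ± 8.6 CPM in 4T1. Cited1, a transcriptional coregulator, was the reverse with 286 ± 6.28 CPM in B16F10 and 0.468 ± 0.157 CPM in 4T1, and Stat5a, which carries the prolactin signal, had 36.8 ± 3.06 CPM in B16F10 and 8.51 ± 0.415 CPM in 4T1. Egfr itself had 0 CPM in B16F10 and 4.17 ± 0.164 CPM in 4T1, so both Areg and its receptor were without a count in B16F10.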
